A study of Mus musculus with 6 samples.

Results

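Transcripts of 8 receptors of the tumour necrosis factor (TNF) receptor superfamily were examined in activated CD4 T cells with and without the microRNA miR-155. The genes were Tnfrsf4, Tnfrsf9, Tnfrsf18, Cd27, Tnfrsf8, Tnfrsf1b, Tnfrsf1a and Tnfrsf25, taken by name, with the death receptor gene Fas left out. Every probe set whose platform annotation carries 1 of these symbols was used, which gave 11 of the 22690 probe sets on the array and 8 of its 12393 named genes. All 8 genes passed the filter on dim genes and were among the 9295 genes tested. The cells came from spleen and lymph nodes of C57BL/6 mice, lacking miR-155 (miR-155 KO, below KO) or wild type (WT), with 3 Affymetrix arrays per genotype. The series description gives 1 mouse per array, which values given below make uncertain for replicate 3. Cells bound by CD4 magnetic beads were kept for 3 days in 1 µg/mL of CD3 and CD28 antibodies with 20 U/mL of interleukin 2, so both genotypes carry the same stimulus. The KO line is a published one, no Cre driver is named in the labels, and they do not give the age or sex of the mice or the purity of the cells.

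Receptors of this superfamily sit in the cell membrane as clusters and are engaged by ligands that are mostly trimeric. Most of those that costimulate T cells, such as OX40, 4-1BB, GITR, CD27 and CD30, bind TRAF adaptor proteins and drive NF-kappa B, which favours survival and cytokine production. TNF receptor 1 and DR3 carry an intracellular death domain, through which they can signal either to NF-kappa B or to cell death. OX40, 4-1BB, GITR and CD30 are known to appear or increase on T cells after activation, whereas CD27 is already present on naive cells.

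The microRNA absent from the KO cells is shown with its seed, bases 2 to 8, in capitals, since pairing of the seed with a transcript is the main determinant of targeting. Its sequence is from RefSeq on GRCm38.p6, chr16:84714143-84714165, plus strand. Sites for it in the receptor transcripts were not searched, because no 3' UTR sequence was used here.
mmu-miR-155-5p: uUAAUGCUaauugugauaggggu

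The promoters of the 8 genes were looked up in the same RefSeq set, which holds 10 windows for them, each from 250 bases before to 50 after an annotated start. The AP-1 motif TGANTCA was found in 2 of the 10 windows on either strand, against 7.81% of all 32851 promoter windows of the same length. The NF-kappa B consensus was found in 3 of the 10, those of Tnfrsf8 and of the downstream starts of Tnfrsf9 and Tnfrsf25, against 8.46% of all windows. The NFAT core GGAAA was in 7 of the 10, against 61.3% of all. The windows with both AP-1 and NF-kappa B letters belonged to Tnfrsf8 and to the downstream start of Tnfrsf9. Both are printed with these matches in capitals. Each NF-kappa B run holds 2 matches shifted by 1 base, and in Tnfrsf9 that run also holds an NFAT core on the other strand. The Tnfrsf8 window is chr4:145315115-145315414 on the minus strand, with its NF-kappa B run starting at -168 and its AP-1 match at -132 from the start. The Tnfrsf9 window is chr4:150927749-150928048 on the plus strand, with the matches starting at -43 and -15. A match is a run of letters only, and no binding was measured.
Tnfrsf8: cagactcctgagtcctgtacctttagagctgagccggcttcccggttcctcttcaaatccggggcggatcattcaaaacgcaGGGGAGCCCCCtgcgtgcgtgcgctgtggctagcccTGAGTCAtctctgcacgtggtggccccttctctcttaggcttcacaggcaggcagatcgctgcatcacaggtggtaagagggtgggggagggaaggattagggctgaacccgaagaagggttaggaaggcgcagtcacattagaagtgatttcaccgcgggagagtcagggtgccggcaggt
Tnfrsf9: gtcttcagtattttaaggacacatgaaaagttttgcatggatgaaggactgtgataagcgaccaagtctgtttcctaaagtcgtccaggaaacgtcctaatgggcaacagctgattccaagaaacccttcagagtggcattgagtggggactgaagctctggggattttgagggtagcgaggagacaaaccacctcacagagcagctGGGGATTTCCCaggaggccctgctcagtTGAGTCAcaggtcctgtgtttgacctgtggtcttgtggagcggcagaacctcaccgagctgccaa

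In that annotation 6 of the genes lie on chromosome 4 and 2, Cd27 and Tnfrsf1a, on chromosome 6. Tnfrsf4 and Tnfrsf18 are next to each other among protein-coding genes, and so are Tnfrsf1b and Tnfrsf8. Tnfrsf4 overlaps the annotated span of Sdf4.

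Some features of the arrays touch every value below. The transcript of the miR-155 host gene, Mir155hg, ranged over 3.51 to 4.45 in KO and 6.59 to 8.21 in WT (log2 units), on the side that each genotype label gives. Both replicate 3 arrays carried Xist (12.59 and 12.64) together with the Y-linked Eif2s3y (10.05 and 10.21), whereas replicate 1 of both genotypes had Xist without Eif2s3y and replicate 2 the reverse. The series description gives 1 mouse per array, which these values make uncertain for replicate 3. KO replicate 1 stood farthest out on the first principal component, at -41.3, the others scoring from -14.6 to 26.1. Over all 9295 genes, limma (Benjamini-Hochberg adjustment) called 0 genes, or 0%, at an adjusted p under 0.05, the smallest being 0.545. It gave 691 genes, or 7.43%, at an unadjusted p under 0.05, and the same fit without moderation gave 0 and 554.

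None of the 8 receptor genes passed the test over all genes. Tnfrsf8, the dimmest of the 8, showed the largest difference, 2.10-fold higher in KO, and Tnfrsf25 followed at 1.46-fold, with genotypes overlapping. The other 6 genes, among them the strongly measured Tnfrsf4, Tnfrsf9 and Tnfrsf18, differed by 0.20 log2 units or less. In all, 6 of 8 were higher in KO and 2 lower, where 49.2% of all genes tested had a higher KO mean. The median difference of the 8 was 0.13, against -0.0036 over all genes tested, and it was 0.035 without KO replicate 1 and 0.19 at most with another array left out. At an unadjusted limma p under 0.05 there was 1 receptor gene, Tnfrsf8, on the higher side, where the background is 3.57% of genes. In 1 of 8, again Tnfrsf8, all KO arrays lay above all WT arrays, as in 5.86% of all genes tested.

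**Figure D1:**
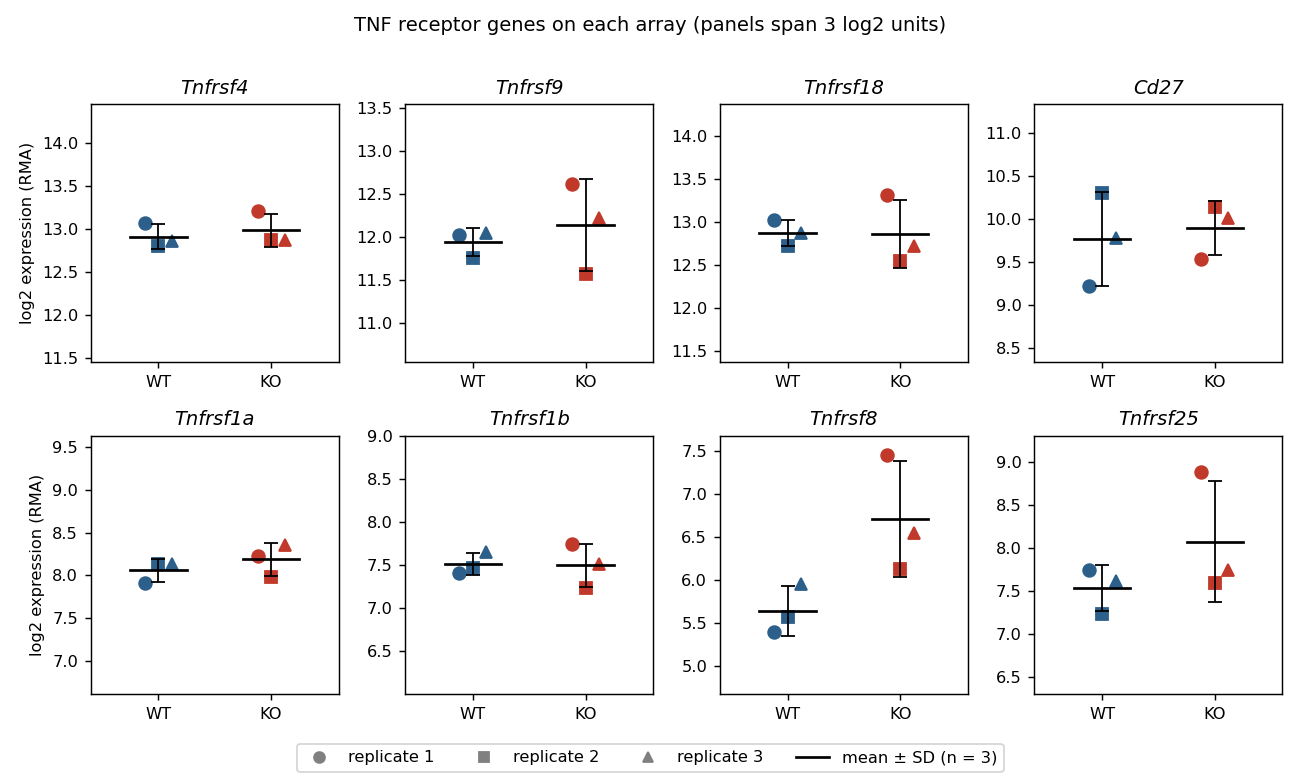
Log2 expression of each receptor gene on every array, with WT in blue and KO in red; the marker shape gives the replicate number, and bars give the mean ± SD of 3 arrays. Each panel spans 3 log2 units. Tnfrsf8 is the panel in which the genotypes do not overlap, and KO replicate 1 (red circle) is the highest array in 6 of the 8 panels.

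Tnfrsf8 encodes CD30, a costimulatory receptor of activated lymphocytes that binds TRAF proteins. It has 1 probe set, whose mean of 6.17 lay at percentile 42.5 of the 12393 genes. KO replicates 1, 2 and 3 read 7.45, 6.13 and 6.55, and WT replicates 1, 2 and 3 read 5.40, 5.56 and 5.96, the order kept below. Every KO array was above every WT array, but the gap between the lowest KO and the highest WT array was 0.17, smaller than the range within either genotype (1.32 and 0.56). The KO mean of 6.71 ± 0.68 and the WT mean of 5.64 ± 0.29 (SD, n = 3) differed by 1.07 ± 0.34 (SE) on the log2 scale. The limma p was 0.0187 unadjusted and 0.631 adjusted, and the exact two-sided permutation test gave p = 0.1, its lower limit with 3 arrays a genotype. KO replicate 1 carried much of the size, and without it the difference was 0.70. The limma p in that fit was 0.0207 unadjusted and 0.840 adjusted, the latter being the smallest adjusted p of any gene there. Without both replicate 3 arrays it was 1.31. More cells carrying a transcript and more of it per cell cannot be told apart in such bulk RNA.

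Tnfrsf4 encodes OX40, a receptor that prolongs the response of activated CD4 T cells. The KO arrays read 13.20, 12.87 and 12.88, and the WT arrays 13.07, 12.80 and 12.86. The genotypes overlapped, and replicate 1 was the highest array of each. The means of 12.98 ± 0.19 and 12.91 ± 0.14 (SD, n = 3) gave a difference of 0.07, with a 95% interval from -0.28 to 0.42.

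Tnfrsf18, its neighbour on the chromosome, encodes GITR, which is high on regulatory T cells and on activated T cells. The KO arrays read 13.31, 12.55 and 12.72, and the WT arrays 13.03, 12.72 and 12.87. Replicate 1 was again the highest of each genotype, and replicate 2 the lowest. The difference was -0.01, with a 95% interval from -0.53 to 0.50, and its sign turned when KO replicate 2 (0.14), KO replicate 3 (0.06) or WT replicate 1 (0.06) was left out.

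Tnfrsf9 encodes 4-1BB, a receptor induced by T cell receptor signals. Its brightest probe set read 12.62, 11.58 and 12.23 in KO, and 12.03, 11.76 and 12.06 in WT. The KO arrays spread over 1.05 log2 units and enclosed all WT arrays, which spread over 0.30. The difference was 0.20, with a 95% interval from -0.45 to 0.84, and it was -0.05 without KO replicate 1. A second probe set gave 0.27 over the same wide KO spread (12.63, 10.96 and 11.67). The third lay at 4.01 in KO and 3.95 in WT, below the dimmest gene tested (4.72), and can show no difference.

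Cd27 encodes a receptor of naive and memory lymphocytes that binds CD70. The KO arrays read 9.53, 10.14 and 10.01, and the WT arrays 9.22, 10.31 and 9.78. In both genotypes replicate 1 was the lowest array and replicate 2 the highest, the reverse of Tnfrsf18. The difference was 0.12, with a 95% interval from -0.59 to 0.84, and it turned to -0.15 without WT replicate 1.

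The genes of the TNF receptors proper differed by less than their spread. Tnfrsf1b, which encodes TNF receptor 2, the form without a death domain, read 7.75, 7.24 and 7.52 in KO, and 7.41, 7.47 and 7.66 in WT. The KO arrays enclosed those of WT, the difference was -0.01 (95% interval from -0.40 to 0.38), and the dimmer probe set gave 0.05. Tnfrsf1a, which encodes TNF receptor 1, read 8.23, 7.98 and 8.35 in KO, and 7.91, 8.13 and 8.14 in WT. Its 2 highest KO arrays lay above all WT arrays and KO replicate 2 lay among them, with a difference of 0.13 (95% interval from -0.21 to 0.47). That difference was 0.047 without KO replicate 3, 0.054 without WT replicate 1 and 0.23 without KO replicate 2.

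Tnfrsf25 encodes DR3, the death domain receptor for the ligand TL1A and a costimulator of T cells. The KO arrays read 8.89, 7.59 and 7.75, and the WT arrays 7.75, 7.24 and 7.63. KO replicate 1 stood more than 1 log2 unit above the other 5 arrays, and KO replicate 2 lay below WT replicates 1 and 3. The KO mean of 8.08 ± 0.71 and the WT mean of 7.54 ± 0.27 (SD, n = 3) differed by 0.54 ± 0.35 (SE), with an adjusted limma p of 0.642. Without KO replicate 1 the difference was 0.14.

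**Figure D2:**
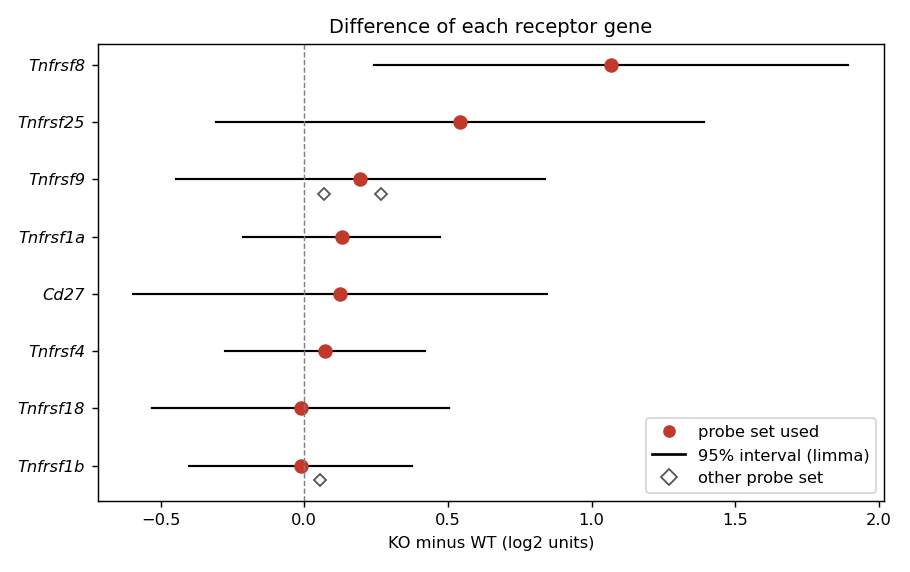
Difference between KO and WT in log2 units for each receptor gene (red points, 3 arrays per genotype) with its 95% interval from limma; diamonds are the other probe sets of Tnfrsf9 and Tnfrsf1b. The interval of Tnfrsf8, from 0.24 to 1.89, is the 1 of 8 that does not reach 0, before any adjustment for the 9295 genes tested.

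The intervals state what these arrays could show for the genes whose difference was small. For Tnfrsf4, Tnfrsf1a and Tnfrsf1b they reached at most 0.47 log2 units from 0, and for Tnfrsf18 0.53. For Cd27 and Tnfrsf9 they reached 0.84, and for Tnfrsf25 1.39, so in those genes 3 arrays a genotype set no narrower bound.

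Array by array, most of the receptor genes moved together in KO. In WT, replicate 1 was the highest WT array for 3 genes and the lowest for 4. Replicate 2 was the highest for 1 and the lowest for 4, and replicate 3 the highest for 4 and the lowest for 0. KO replicate 1 was the highest of all 6 arrays for 6 of the 8 genes, by 1.28 log2 units above the gene's mean for Tnfrsf8 and 1.08 for Tnfrsf25. KO replicate 2 was the lowest KO array for 7 of the 8, with Cd27 as the exception. Averaged over the 8 genes, the arrays stood at 0.46, -0.15 and 0.09 in KO and at -0.19, -0.16 and -0.04 in WT, relative to the mean of all 6. The lowest KO array thus lay at the level of the WT arrays. On the first principal component KO replicate 1 also stood apart, and its part in these values was not tested beyond leaving the array out. That component held 61.9% of the variance over the genes tested. Averaged likewise, KO replicates 1, 2 and 3 stood at 0.47, -0.17 and 0.16 for the naive T cell markers described below. They stood at 0.24, -0.06 and 0.11 for the adaptors, and at 0.15, -0.08 and 0.15 for the other receptors of the superfamily. For the ligands all KO arrays were low, at -0.35, -0.33 and -0.24, so KO replicate 1 did not stand apart there. The share of all genes that were highest on KO replicate 1 was not counted, nor the share for which KO replicate 2 was the lowest KO array.

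**Figure D3:**
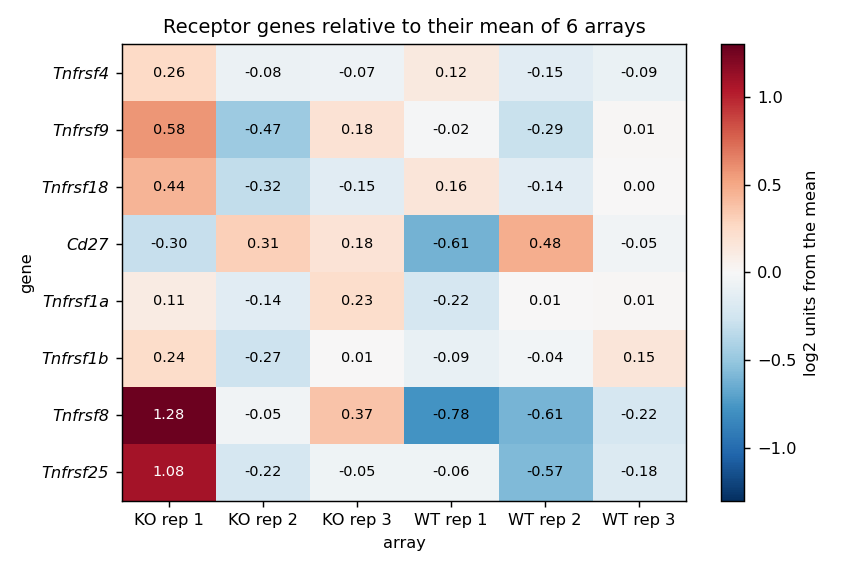
Log2 expression of each receptor gene (rows) on each array (columns) relative to the gene's mean over the 6 arrays, with red above and blue below the mean. The column of KO replicate 1 holds the highest value of every gene other than Cd27 and Tnfrsf1a, and the row of Cd27 runs opposite to that of Tnfrsf18.

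Of the 28 pairs of receptor genes, 16 had a Pearson correlation above 0.5 over the 6 arrays. The neighbours Tnfrsf4 and Tnfrsf18 correlated at 0.90 (Spearman's rho 0.54), and at 0.94 once each genotype's mean was taken out. The other neighbours, Tnfrsf1b and Tnfrsf8, correlated at 0.57 (rho 0.54). Tnfrsf8 and Tnfrsf25 correlated at 0.86 (rho 0.60). Cd27 was below 0 in 6 of its 7 pairs, down to -0.81 with Tnfrsf4 (rho -0.77), while 1 of the other 21 pairs, Tnfrsf4 with Tnfrsf1a at -0.05, was. These are descriptions over 6 arrays that all genes share, and the matching share over pairs of all genes was not computed.

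Among the 9295 genes tested, those with the most similar profile over the 6 arrays were named for each receptor by Pearson correlation. For Tnfrsf8 they were Proser2 (0.995) and Exoc6 (0.993), for Tnfrsf25 Parvg (0.999) and Trip12 (0.994), and for Tnfrsf9 Stau1 (0.995) and Smim3 (0.993). For Tnfrsf4 they were Swap70 (0.989) and Mafg (0.989), for Tnfrsf18 Mbip (0.997) and Abcc1 (0.993), and for Cd27 Ms4a6b (0.993) and Irf2 (0.988). For Tnfrsf1a they were Mmp2 (0.989) and Trpt1 (0.988), and for Tnfrsf1b Creld1 (0.993) and Stx18 (0.991). Each was picked as the highest of 9295 over 6 arrays, and none was a receptor of the superfamily.

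Among the ligands of these receptors, Lta, Tnfsf4 and Tnf were lower in KO without passing the test. Of 8 ligand genes 6 were on the array and 5 tested, with 2 higher and 3 lower in KO, 0 past the test and a median difference of -0.57. The 3 lower ones had an unadjusted limma p under 0.05, against a background of 3.86% on the lower side. In 2, Lta and Tnf, all KO arrays lay below all WT arrays, as in 6.92% of genes tested. Tnfsf4, Tnfsf9, Tnfsf8 and Cd70 are named here after their values were seen.

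Lta, which encodes lymphotoxin alpha, a ligand of both TNF receptors, read 8.70, 7.62 and 7.82 in KO, and 10.53, 9.18 and 9.53 in WT. The lowest WT array lay above the highest KO array, and the difference was -1.70 ± 0.42 (SE, limma adjusted p = 0.631). Tnf itself read 7.41, 7.64 and 7.71 in KO, and 8.43, 7.99 and 8.04 in WT, a difference of -0.57 ± 0.16 (SE, limma adjusted p = 0.631). Their receptor genes Tnfrsf1a and Tnfrsf1b overlapped between genotypes, as given above. Tnfsf4, the OX40 ligand, read 5.63, 6.74 and 6.77 in KO, and 7.82, 7.68 and 6.74 in WT, so WT replicate 3 lay among the KO arrays. Its difference was -1.03 ± 0.41, and -0.66 without KO replicate 1. Tnfsf8, the CD30 ligand, differed by 0.12 and Tnfsf9, the 4-1BB ligand, by 0.11, both with overlapping genotypes. Cd70, the ligand of CD27, was too dim to be tested, with means of 4.37 and 4.73.

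**Figure D4:**
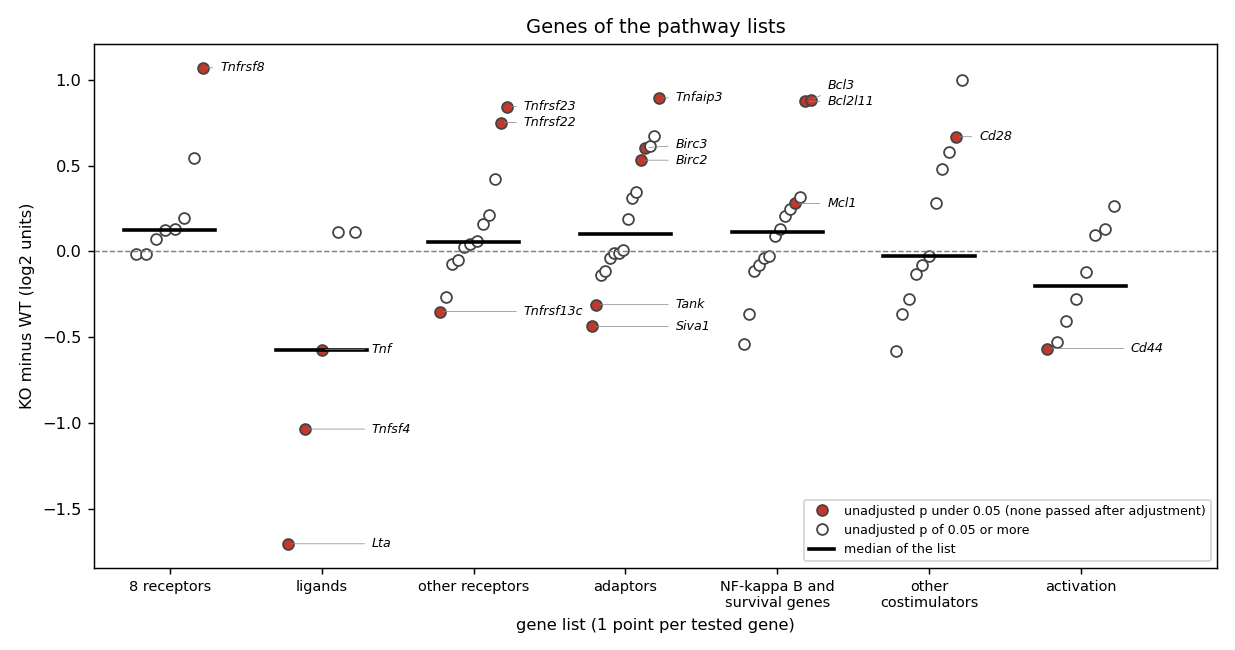
Difference between KO and WT in log2 units for every tested gene of the 8 receptors and 6 further lists, with a bar at each list's median; filled points had an unadjusted limma p under 0.05, and none passed after adjustment. Tnfrsf8 lies at the top of the receptors, and Lta, Tnfsf4 and Tnf at the bottom of the ligands.

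Other receptors of the superfamily included genes on either side of 0. Of 19 genes 16 were on the array and 12 tested, 8 higher and 4 lower in KO, with 0 past the test, 2 higher and 1 lower at an unadjusted limma p under 0.05 (background 3.57% and 3.86%), and a median of 0.05. Tnfrsf23, a decoy receptor for the ligand TRAIL, read 6.40, 5.14 and 5.62 in KO, and 4.53, 4.97 and 5.13 in WT, a difference of 0.84 ± 0.33 (SE). The gap between the genotypes was small, and without KO replicate 1 the difference was 0.50. Its paralogue Tnfrsf22, named after its values were seen, differed by 0.75 and by 0.49 without that array. Tnfrsf13c, the BAFF receptor of B cells, read 7.15, 7.04 and 7.19 in KO, and 7.59, 7.53 and 7.31 in WT, a difference of -0.35 ± 0.12 (SE). Beside it, the B cell markers (7 of 8 on the array) had mean levels from 5.78 to 6.29 in KO and from 5.66 to 6.38 in WT. Of the 5 tested 3 were higher and 2 lower in KO. Ms4a1, with the smallest p, was at -0.70 (-0.39 without WT replicate 2). The part of B cells in the value of Tnfrsf13c was not tested.

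Adaptors that couple the receptors to NF-kappa B and cell death leaned both ways. Of 19 genes 16 were on the array and all 16 were tested, 9 higher and 7 lower, with 0 past the test and a median of 0.10. At an unadjusted limma p under 0.05 there were 3 higher and 2 lower, where the background is 3.57% and 3.86% of genes tested. Genotypes were separate in 5 on the higher and 2 on the lower side, against 5.86% and 6.92% of genes tested. Siva1, a pro-apoptotic protein that binds the tail of CD27, read 9.75, 10.12 and 9.99 in KO, and 10.45, 10.43 and 10.31 in WT. All KO arrays lay below all WT arrays, at a difference of -0.44 ± 0.13 (SE), and its 3 other probe sets gave -0.46, -0.40 and -0.39. Birc3, a ubiquitin ligase recruited through TRAF2, read 12.13, 11.33 and 11.54 in KO, and 11.04, 10.98 and 11.16 in WT, a difference of 0.60 ± 0.21, and 0.37 without KO replicate 1. Its relative Birc2 differed by 0.53 and Tnfaip3, an inhibitor of NF-kappa B signalling, by 0.89 (0.47 without KO replicate 1), both named after their values were seen. The TRAF genes themselves were close to 0 for Traf2 (0.01), Traf4 (-0.01), Traf5 (-0.04) and Traf6 (-0.11), while Traf1 was at 0.61 with overlapping genotypes (0.40 without KO replicate 1). The TRAF genes, too, are named after their values were seen.

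Among 14 tested NF-kappa B and survival genes, 8 were higher and 6 lower, 0 passed, 3 had an unadjusted limma p under 0.05 on the higher side (background 3.57%), and the median was 0.11. Bcl3, an atypical member of the I kappa B family, differed by 0.88 (0.56 without WT replicate 1), and Bcl2l11, which encodes the pro-apoptotic protein Bim, by 0.87 (0.49 without that array). Of 11 tested costimulators of other families 5 were higher and 6 lower, 0 passed, and the median was -0.02. Cd28, the receptor engaged by the culture antibody, was at 0.67 (0.42 without WT replicate 1) and Havcr2, the inhibitory receptor Tim-3, at 1.00 (0.43 without KO replicate 1). Of 8 tested activation markers 3 were higher and 5 lower, 0 passed, and the median was -0.20. Cd44 was at -0.57 (-0.37 without WT replicate 1), and Tfrc, the transferrin receptor gene, at -0.52 (-0.31 without WT replicate 1), where dimmer Tfrc probe sets gave 0.57 and 0.03.

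Cell type markers were set beside these values because several of the receptors are shared with other cells. CD4 T cell markers (7 of 9 on the array) had mean levels from 11.08 to 11.32 in KO and from 10.73 to 11.17 in WT. All 7 were tested, with 6 higher and 1 lower in KO, from -0.02 to 0.48, and a median of 0.21. Zbtb7b, with the smallest p, had the largest difference, 0.48 (0.29 without WT replicate 1), and its other probe set gave 0.28. OX40, GITR and CD30 are also borne by regulatory T cells, whose markers (9 of 10 on the array) had mean levels from 7.56 to 7.63 in KO and from 7.33 to 7.60 in WT. Their defining factor gene Foxp3 lay between 3.31 and 4.74 on all arrays, near or below the dimmest gene tested, and its difference of -0.45 was not tested. Of the 7 tested regulatory T cell markers 5 were higher and 2 lower in KO, from Nrp1 at -0.75 to Itgae at 0.90, which had the smallest p. Nrp1, named after its values were seen, differed by -0.053 without KO replicate 1. Naive T cell markers, set beside Cd27, ranged from 9.30 to 9.94 in KO and from 9.04 to 9.51 in WT, with 4 of 6 tested higher and 2 lower in KO. Bach2, with the smallest p of that list, was at 0.36, and the list spanned Lef1 at -0.15 to Il7r at 1.34, both named after their values were seen. Myeloid markers, set beside the TNF receptors, ranged from 5.19 to 5.31 in KO and from 5.02 to 5.24 in WT, with Lyz2, Itgam and Cd14 too dim to be tested. Among the 5 tested, Cd68 (0.63), Fcgr3 (0.43), Adgre1 (0.29) and Csf1r (0.16) leaned to KO and Mpeg1 (-0.61) to WT. Their median difference was 0.29, and the genotypes overlapped in each. Fcgr3 had the smallest p, and Cd68, Adgre1, Csf1r and Mpeg1 are named after their values were seen. CD8 T cell markers ranged from 6.66 to 6.81 in KO and from 6.62 to 6.93 in WT, NK cell markers from 4.85 to 5.06 and from 4.68 to 5.16, and dendritic cell markers from 4.63 to 4.79 and from 4.64 to 4.73. The part of such cells in the receptor values was not tested.

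**Figure D5:**
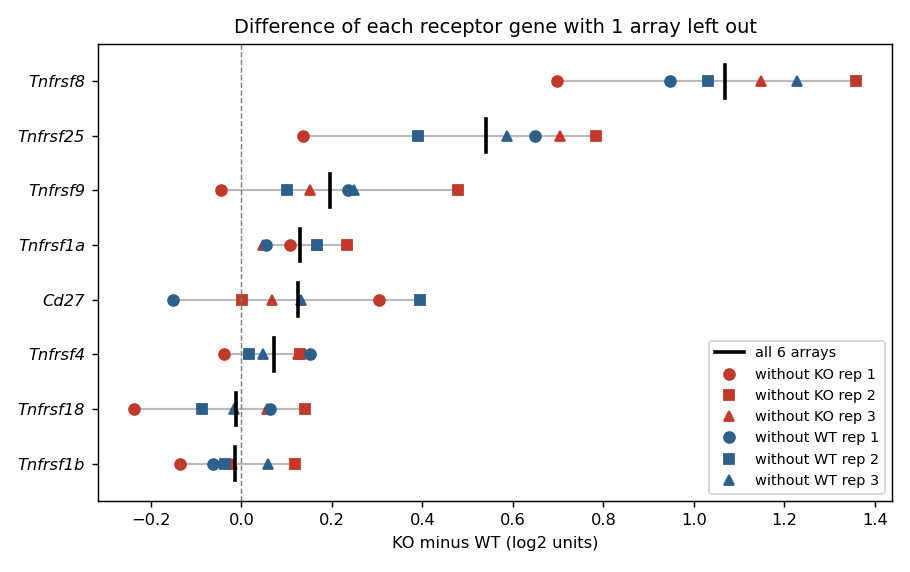
Difference between KO and WT in log2 units for each receptor gene with 1 array left out (coloured markers, named by the array removed) and with all 6 arrays (black bars). Tnfrsf8 stays between 0.70 and 1.36, Tnfrsf25 ranges from 0.14 to 0.78, and Tnfrsf4, Tnfrsf9, Tnfrsf18, Cd27 and Tnfrsf1b cross 0.

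With 1 array left out, Tnfrsf8, Tnfrsf25 and Tnfrsf1a were higher in KO every time, and the other 5 genes changed sign for at least 1 array. The number of receptor genes higher in KO then ran from 4 to 8. KO replicate 1 set the lowest value for Tnfrsf8, Tnfrsf25, Tnfrsf9, Tnfrsf4, Tnfrsf18 and Tnfrsf1b, and WT replicate 1 set it for Cd27.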

How the data were processed

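RNA of 6 samples was measured on Affymetrix arrays. The authors deposited log2 values. Per the submitters' processing notes these come from RMA and affy, with no version named in the labels. The method subtracts background, equalises the arrays and summarises probes, which compresses differences of dim genes. No detection calls were used, and precision is limited by the number of arrays.

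After 64 control probe sets were removed, 20380 probe sets had 1 gene symbol in GEO's platform annotation, 691 several and 1555 none in the table used. Of the 12393 genes, 12369 were found by gene number in RefSeq (GRCm38.p6). The probe set with the highest mean stood for each gene, and the dimmest 25% of genes by mean were dropped. The genotypes were then compared in R 4.3.3 using limma 3.58.1 (two-sided, Benjamini-Hochberg over 9295 genes). Values of other probe sets come from the same fit over all 20380 probe sets. On simulated data for KO minus WT over 9295 genes, 57.0%, 85.5% and 96.0% of genes changed by 1, 2 and 3 log2 units were called. Each gene was given independent normal noise at its own spread, and 200 genes were changed. Variation that genes share on an array was not simulated, so these shares do not give the power for a single receptor gene.

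Receptors and lists were chosen with earlier results of these data known. Named were all receptors, from each list the 2 genes with the smallest p where none passed (from marker lists 1), and the 2 genes most alike to each receptor. Alternatives were the replicate block, each array left out, median centring, further quantile normalization, no filter or one at 50%, and the mean of probe sets. Further ones were eBayes with its trend and robust options, array weights (statmod 1.5.0), no moderation, adjusted p under 0.1 and no sex chromosome genes. Leaving out both replicate 3 arrays was added after seeing the data.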

Additional observations from a re-analysis of the deposited data

How the results depend on the processing

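No receptor gene passed under the alternatives other than array weights. With array weights 3575 genes passed limma, against 0 otherwise, and Tnfrsf8 was among them (0.97, adjusted p = 0.0122, against 0.289 to 0.950 under the other alternatives). These weights, estimated from the same arrays, gave 5.55 to KO replicate 3 and 5.04 to WT replicate 2 and between 0.27 and 0.58 to the others, so that fit rests mainly on 1 array per genotype. Without moderation the unadjusted p of Tnfrsf8 was 0.0653, and in limma it was 0.0638 without WT replicate 1 and 0.0537 without WT replicate 2. With array weights Cd27 turned to -0.17 and Tnfrsf1b to 0.027. Tnfrsf1b also turned to 0.020 with the mean of probe sets and to 0.052 without both replicate 3 arrays, where Tnfrsf18 turned to 0.055. Leaving out 1 array in turn gave -0.038 to 0.15 for Tnfrsf4, -0.045 to 0.48 for Tnfrsf9, -0.24 to 0.14 for Tnfrsf18, -0.15 to 0.39 for Cd27 and -0.14 to 0.12 for Tnfrsf1b. Genes at an unadjusted p under 0.05 numbered 1542 when KO replicate 2 was left out, 275 without WT replicate 1, 279 without WT replicate 2, 296 without KO replicate 3 and 1335 without WT replicate 3. With the replicate number as a block, 0 genes passed and 918 had an unadjusted limma p under 0.05. Tnfrsf8 stayed at 1.07 in that fit (unadjusted p = 0.0337). Deviations of same-numbered arrays correlated at -0.04, 0.64 and 0.40, and KO replicate 1 correlated best with WT replicate 3 (0.39). Xist and Eif2s3y, in contrast, matched between the genotypes by replicate number, as given above. The labels state no pairing, so the main fit has no block, and whether the numbers mark pairs was not settled. Tnfrsf8 has no value with the lower 50% of genes left out, because it is among them.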
